A study of Mus musculus with 30 samples.

Results

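LINE-1 elements (L1) are the retrotransposons that still copy themselves in the mouse genome. A full-length copy carries its own promoter and encodes an RNA-binding protein and a protein with endonuclease and reverse transcriptase activity, which together copy the L1 RNA back into DNA. In male germ cells L1 copies are held down by DNA methylation, by piRNAs and by repressive histone marks. The L1Md families are the mouse-specific L1 families, distinguished mainly by their promoter repeats. The families L1Md_A, L1Md_T and L1Md_Gf include copies that are still mobile, whereas L1Md_F, L1Md_F2 and L1Md_F3 are regarded as older, so the word young fits only some of the members. The members were all features of the 2 sperm RNA tables whose name begins with L1Md_. They were 6 of 3082 features, and of 584 transposable elements, in the 46 days experiment, and the same 6 of 16242 features, and of 632 transposable elements, in the 24 h experiment.

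The study asked whether activating the nuclear receptors PPARα and PPARγ in adult males changes the RNA carried by sperm. C57Bl/6J males, 3 months old, received tesaglitazar, an agonist of both receptors, at 10 μg/kg (Tesa-inj), or vehicle (Vehicle-inj), by intraperitoneal injection 2 times per week for 4 weeks. Sperm of 7 Tesa-inj and 7 Vehicle-inj males was collected 46 days after the last injection, when new sperm had formed, and its total RNA was sequenced after depletion of rRNA (libraries KG8-01 to KG8-14). A legend of the study counts 1 Tesa-inj library fewer than was deposited and does not name it, so all 7 were used here. Sperm of 4 Tesa-inj and 4 Vehicle-inj males was collected 24 h after the last injection, and its polyadenylated RNA was sequenced (libraries ai_1 to ai_8). The time after injection and the type of library change together, so their parts in any difference between the 2 experiments cannot be told apart. Sperm was released from the cauda epididymis and treated with a lysis buffer for somatic cells. The authors quantified reads with Salmon on an index in which all copies of a repeat family were joined, so a value is the estimated count of a whole family, and neither a copy nor a strand of origin can be read from it. Family lengths were not available, so shares of counts are not levels per length and the order of the families is an order of read counts.

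The sperm libraries differed in usable depth. At 46 days the totals ran from 4538101 to 13513801 counts, with a median of 8744995 for Tesa-inj and of 8189891 for Vehicle-inj. The 5 features most abundant on average over the 14 libraries included the ribosomal Rn18s-rs5 and L1Md_F2 itself. Outside these 5, between 158852 (KG8-02, Tesa-inj) and 7119432 counts (KG8-14, Vehicle-inj) were left, a 44.8-fold range. The factors of TMM, the scaling that sets most features equal between libraries, ran from 0.0981 (KG8-02) to 8.15 (KG8-14). At 24 h the totals ran from 15337517 to 27709918 counts and the TMM factors from 0.771 to 1.57. All 6 families had more than 20 counts in all 14 and in all 8 libraries and were tested. The widest 95% Wilson interval of a share, which covers counting error only, was 32.7% of the share to either side, for the 37 counts of L1Md_Gf in KG8-02.

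Markers of sperm and of other cell types were checked in both tables, in counts scaled to a common total (CPM). All 14 markers of late spermatids and sperm were present at 46 days, with Prm2 the most abundant, and their summed level, scaled by library totals alone, ran from 63.2 to 4846 CPM in Tesa-inj and from 429 to 7789 CPM in Vehicle-inj. None of the markers of leukocytes, epididymal epithelium, red blood cells, smooth muscle or early germ cells was in the 46 days table, where each feature exceeds 20 counts in 3 or more libraries. At 24 h all 14 sperm markers were present, with Odf1 the most abundant, at 5409 to 13175 CPM in Tesa-inj and 3200 to 14793 in Vehicle-inj. Of the other lists, 11 of 12 leukocyte markers (Cd52 the most abundant) summed to 1184 to 3965 CPM in Tesa-inj and 934 to 2156 in Vehicle-inj. The 13 of 17 epididymal markers present (Spink8 the most abundant) summed to 1406 to 3282 and 1041 to 3504. The 4 of 6 erythroid markers, led by Hba-a2, reached 231 and 310 at most, the 6 of 6 smooth muscle markers, led by Tagln, 104 and 51.4, and the 6 of 10 markers of spermatogonia and spermatocytes, led by Zbtb16, 26.1 and 19.9. The groups overlapped for every list, and the part of these cells in L1Md counts was not tested. In such bulk samples fewer cells of a type and less RNA per cell cannot be told apart.

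The 46 days experiment examined sperm after a delay that allows a full cycle of sperm formation, and its L1Md RNA was compared here between the groups. Together the 6 families held 4.23% ± 1.99 of all counts in the Tesa-inj libraries and 3.85% ± 0.781 in those of Vehicle-inj (SD, n = 7 each). Libraries of Tesa-inj ran from 1.83% through a median of 3.79% to 7.27%, and libraries of Vehicle-inj from 2.73% through 3.85% to 5.26%. The highest shares were those of KG8-12 (7.27%) and KG8-11 (6.58%), both Tesa-inj, and the lowest that of KG8-02 (1.83%), also Tesa-inj, so the Vehicle-inj range lay inside that of Tesa-inj. Without KG8-12 the mean of Tesa-inj was 3.72% ± 1.61 (SD, n = 6), below that of Vehicle-inj, and in libraries KG8-01 to KG8-10 alone the means were 3.15% ± 0.877 for Tesa-inj and 4.11% ± 0.714 for Vehicle-inj (SD, n = 5 each). The order of the group means therefore rested on KG8-11 and KG8-12.

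The total of the counts on transposable elements alone leaves out ribosomal RNA and needs no scaling factor, but it includes the L1Md counts themselves. Of this total the 6 families held 42.5% ± 5.28 in Tesa-inj and 30.6% ± 9.32 in Vehicle-inj (SD, n = 7 each). Tesa-inj libraries ran from 37.2% through a median of 39.8% to 52.0%, and Vehicle-inj libraries from 14.2% through 32.8% to 43.1%. All Tesa-inj libraries stood above 6 of the 7 Vehicle-inj libraries, and KG8-06 (43.1%, Vehicle-inj) lay inside their range. The lowest Vehicle-inj shares, in KG8-14 (14.2%), KG8-10 (24.9%) and KG8-07 (27.9%), came with sperm marker sums of 7789, 2926 and 1712 CPM. The other Vehicle-inj libraries had sums of 429 to 944 CPM. In Tesa-inj KG8-11 had a high sum (4846 CPM) and a share of 39.4%. Outside the 5 features most abundant on average, KG8-14, KG8-10 and KG8-07 had 7119432, 1485837 and 1902014 counts, the most of Vehicle-inj. KG8-11 had 3216118, the most of Tesa-inj. The parts of sperm content and of this depth in the share of transposable element counts were not tested. Without KG8-12 the mean of Tesa-inj was 40.9% ± 3.49 (SD, n = 6), and in libraries KG8-01 to KG8-10 the means were 41.2% ± 3.83 and 32.9% ± 7.10 (SD, n = 5 each). All transposable elements together held 4.61% to 16.7% of all counts in Tesa-inj and 9.42% to 19.3% in Vehicle-inj. Summed shares carry no test here, since the members were chosen with results of these data known.

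The older families carried nearly all of these counts. L1Md_F2 and L1Md_F3 together held 71.3% to 99.1% of the L1Md counts of a library at 46 days, the lowest being KG8-14 (71.3%) and KG8-11 (85.8%). L1Md_F2 held 1.13% to 5.10% of all counts in Tesa-inj (median 2.55%) and 1.44% to 3.46% in Vehicle-inj (median 2.65%). L1Md_F3 held 0.673% to 2.02% in Tesa-inj (median 1.15%) and 0.506% to 1.57% in Vehicle-inj (median 1.03%). For both families KG8-12 was the highest of all 14 libraries and the groups overlapped.

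Of the families with mobile copies, L1Md_T held 0.0135% to 0.877% of all counts in Tesa-inj (median 0.0313%) and 0.0237% to 0.638% in Vehicle-inj (median 0.0887%). L1Md_A held 0.00329% to 0.0311% in Tesa-inj (median 0.00688%) and 0.00745% to 0.0657% in Vehicle-inj (median 0.0171%). L1Md_Gf, the least counted, held 0.000422% to 0.00760% in Tesa-inj (median 0.00146%) and 0.00133% to 0.0228% in Vehicle-inj (median 0.00418%). Among Tesa-inj libraries KG8-11 was the highest in each of these 3 families, among Vehicle-inj libraries KG8-14, and the groups overlapped in each. L1Md_F behaved like L1Md_A in size, with a median share of 0.00444% for Tesa-inj and of 0.0117% for Vehicle-inj.

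**Figure D1:**
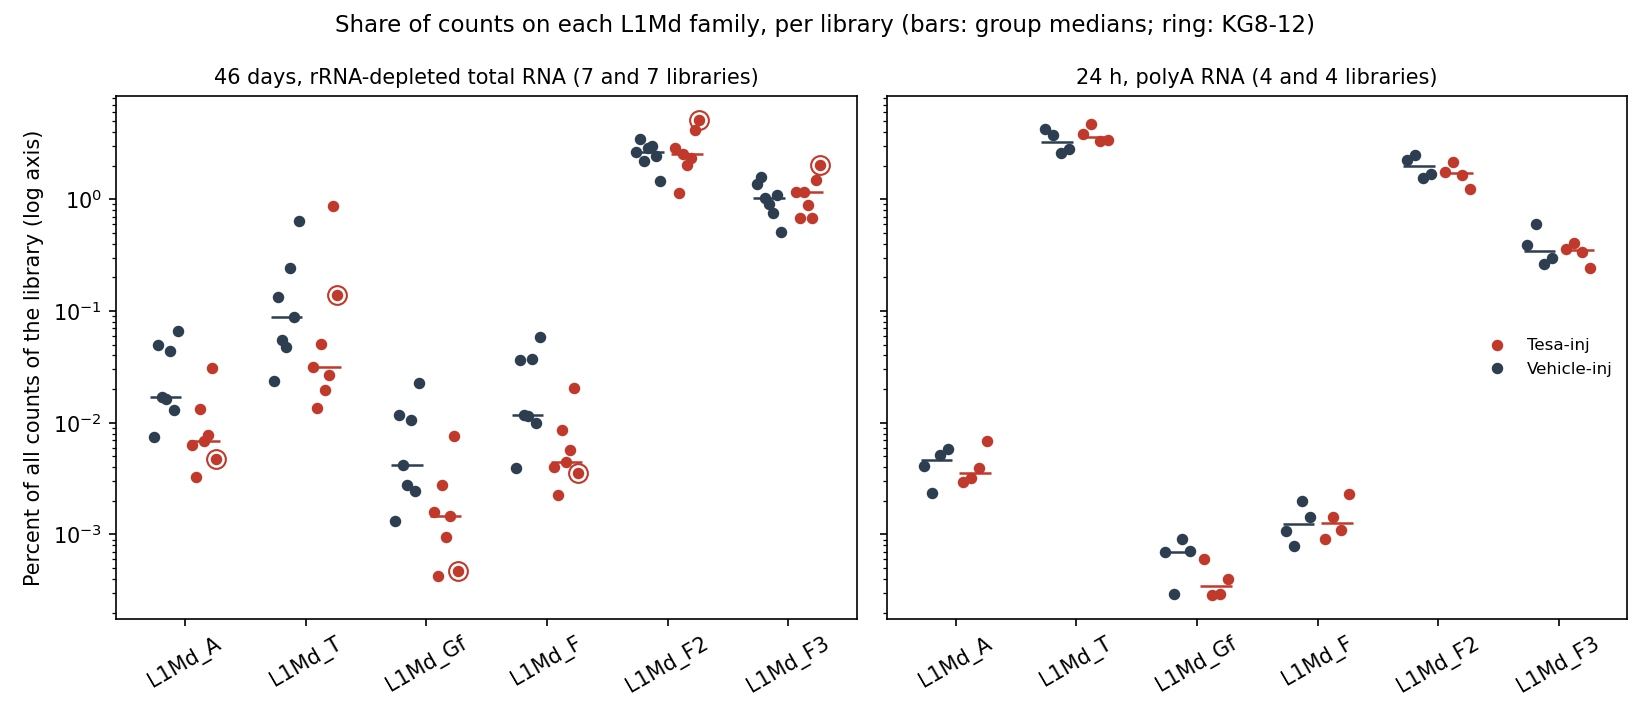
Percent of all counts of a library on each L1Md family (log axis) in rRNA-depleted sperm RNA at 46 days (left) and polyadenylated sperm RNA at 24 h (right); each point is 1 library, horizontal bars are group medians and a ring marks KG8-12. L1Md_F2 and L1Md_F3 held most L1Md counts at 46 days and L1Md_T at 24 h, KG8-12 was the highest library for L1Md_F2 and L1Md_F3, and the groups overlap in each family.

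The families formed separate patterns across the 14 libraries. On the log2 share of all counts, L1Md_A correlated with L1Md_F (Pearson r = 0.99, n = 14) and with L1Md_Gf (0.99), and L1Md_F2 with L1Md_F3 (0.81), while L1Md_A and L1Md_F2 had an r of 0.13. The points share each library's total and ribosomal RNA share, so these values are a description only. The ratio of counts on L1Md_F to L1Md_A stayed between 0.528 and 0.887 in the 14 libraries, whereas the ratio of L1Md_F2 to L1Md_A ran from 134 (KG8-11) to 1072 (KG8-12) in Tesa-inj alone. L1Md_A also kept a nearly fixed ratio to L1_Mus3, an older mouse L1 family outside the list, of 0.152 to 0.199, and their shares had an r of 1.00.

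L1Md_T moved apart from L1Md_A in a few libraries. The ratio of L1Md_T to L1Md_A counts was 2.70 to 5.53 in libraries KG8-01 to KG8-10, of either group. It was 28.2 in KG8-11 and 29.2 in KG8-12, both Tesa-inj, and 6.89 in KG8-13 and 9.71 in KG8-14, both Vehicle-inj. The 4 libraries KG8-11 to KG8-14 therefore stood above the other 10, and the 2 Tesa-inj libraries among them above the 2 Vehicle-inj libraries. The same 4 libraries had a ratio of Lars2, a mitochondrial leucyl-tRNA synthetase gene, to the transcript RP23-81C12.3 of 0.763 to 1.03, against 0.124 to 0.218 in the other 10. The labels name no batch, and these ratios were chosen after their values were seen. In the test described below, the log2 fold change of L1Md_T was 1.11 with all libraries, 0.73 (SE 0.38, adjusted p = 0.820) with a term for libraries KG8-11 to KG8-14, and 0.29 (SE 0.38, adjusted p = 0.919) in libraries KG8-01 to KG8-10 alone. Since these libraries stand apart in L1Md_T itself, lower values without them are no separate finding. Leaving out 1 of the 4 at a time gave 0.41 without KG8-12, but 1.03 without KG8-11, 1.25 without KG8-13 and 1.18 without KG8-14, so the estimate of L1Md_T rested on KG8-12. L1Md_F2 was at 1.60 with the term and at 1.19 in the first 10 libraries, and L1Md_F3 at 1.66 and 1.34. What sets the 4 libraries apart is not in the labels and was not tested.

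**Figure D2:**
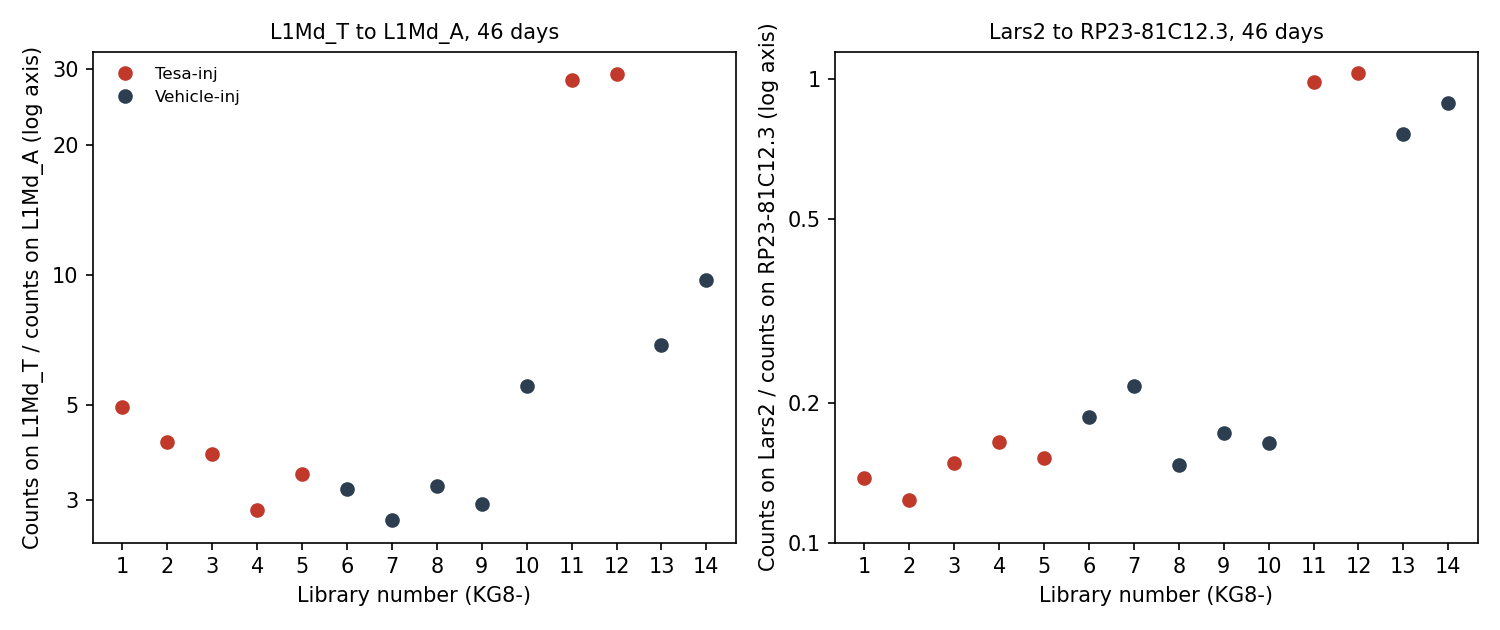
Ratio of counts on L1Md_T to counts on L1Md_A (left) and of counts on Lars2 to counts on RP23-81C12.3 (right), both on log axes, in each of the 14 libraries at 46 days by library number. Libraries KG8-11 to KG8-14 lie above the other 10 in both, and the L1Md_T to L1Md_A ratio is highest in KG8-11 (28.2) and KG8-12 (29.2).

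For the test the counts were scaled by TMM over all features and given as CPM, and elements were called at an adjusted p under 0.05 over all tested elements. In CPM L1Md_T ran from 295 through a median of 579 to 4392 in Tesa-inj and from 427 through 518 to 904 in Vehicle-inj. The 3 Tesa-inj libraries KG8-12 (4392), KG8-11 (1811) and KG8-02 (1377) lay above all Vehicle-inj libraries, KG8-01 (295) lay below them, and the other 3 inside their range. The log2 fold change was 1.11 (SE 0.38, 95% confidence interval 0.37 to 1.86, adjusted p = 0.512), with the 3rd smallest p of 567 elements. L1Md_T thus did not pass the test, and without KG8-12 its log2 fold change was 0.41 (adjusted p = 0.707).

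L1Md_F2 ran from 8589 through a median of 51077 to 161076 CPM in Tesa-inj and from 1771 through 20065 to 47723 in Vehicle-inj, with a log2 fold change of 1.59 (SE 0.76, interval 0.10 to 3.08, adjusted p = 0.841). L1Md_F3 ran from 3080 through 14561 to 69694 CPM in Tesa-inj and from 621 through 9488 to 24711 in Vehicle-inj, with 1.63 (SE 0.65, interval 0.36 to 2.91, adjusted p = 0.841). For L1Md_F2 4 of 7 Tesa-inj libraries stood above all Vehicle-inj libraries, for L1Md_F3 3 of 7, and KG8-12 and KG8-02 were the highest for both. The rank of KG8-02 depends on the scale: its share of all counts was the lowest of the 14 for L1Md_F2 (1.13%) and 0.684% for L1Md_F3, and its TMM factor was the smallest, while its share of transposable element counts was the highest of the 14 for L1Md_F3 (14.8%). Without KG8-12 the log2 fold changes were 1.17 for L1Md_F2 and 1.30 for L1Md_F3.

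The other 3 families lay close to or below 0. L1Md_A had a log2 fold change of 0.13 (SE 0.32), L1Md_F of 0.04 (SE 0.31) and L1Md_Gf of -0.38 (SE 0.32), and each of the 3 had overlapping groups. Without KG8-02 L1Md_A (-0.18) and L1Md_F (-0.26) turned negative, and without KG8-01 they were at 0.27 and 0.19. L1Md_Gf ran from 14.8 through a median of 27.2 to 43.1 CPM in Tesa-inj and from 24.1 through 29.7 to 45.1 in Vehicle-inj. KG8-01, KG8-11 and KG8-12 lay below all Vehicle-inj libraries.

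In the quasi-likelihood test of edgeR none of the 6 families was called at 46 days, and 1 of 567 tested elements was (0.176%). At an unadjusted p under 0.05 stood 3 of the 6 families, L1Md_T, L1Md_F2 and L1Md_F3, and 22 of all 567 elements (3.88%). Without KG8-12 none of the 6 was called or had an unadjusted p under 0.05, against 13 of 577 elements (2.25%) at that level. Other tests gave other counts. The exact test of edgeR called L1Md_T (adjusted p = 0.0483), L1Md_F2 (0.00359) and L1Md_F3 (0.00180) among 6 of 567 elements (1.06%), limma voom with quality weights called L1Md_F2 and L1Md_F3 among 4 (0.705%), and DESeq2 called none of the 6. Without KG8-01 the quasi-likelihood test called L1Md_T (log2 fold change 1.30, adjusted p = 0.0354) among 6 of 579 elements (1.04%). Over all alternatives and left-out libraries the adjusted p of L1Md_T ran from 0.0354 to 0.994, that of L1Md_F2 from 2.70e-15 to 0.997 and that of L1Md_F3 from 3.88e-10 to 0.994.

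These tests weigh the spread of a family differently. At 46 days edgeR found no variation of the spread among elements beyond its trend with abundance, so the quasi-likelihood test gave each element the spread of that trend and not its own. Voom weighted the libraries unequally and gave KG8-01 a weight of 0.0603, KG8-11 0.0780 and KG8-14 0.179 against 6.91 for KG8-08. An exact permutation test of the log2 CPM of a single family over all 3432 assignments of the 14 libraries, added after the data were seen, uses only that family's own spread. It gave p = 0.304 for L1Md_T, 0.0728 for L1Md_F2 and 0.0927 for L1Md_F3 in this exact test, and without KG8-12 0.616, 0.150 and 0.175.

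The same exact test on the log2 share of transposable element counts, which needs no scaling factor, gave other values. L1Md_F2 held 24.5% of these counts at the lowest, 28.5% at the median and 36.5% at the highest in Tesa-inj, against 7.49%, 21.7% and 28.1% in Vehicle-inj. The 4 libraries KG8-01, KG8-04, KG8-05 and KG8-12 lay above all Vehicle-inj libraries and the other 3 inside their range. The lowest shares were those of KG8-14 (7.49%), KG8-10 (18.2%) and KG8-07 (18.4%). These are the Vehicle-inj libraries with the highest sperm marker sums and the largest TMM factors (8.15, 3.30 and 2.57). The mean log2 difference of L1Md_F2 was 0.58 (exact permutation p = 0.0117), and 0.53 without KG8-12 (exact permutation p = 0.0344). For L1Md_F3 it was 0.65 (exact permutation p = 0.0682), and 0.61 without KG8-12 (exact permutation p = 0.129). The total of transposable element counts includes these families themselves and B4A, a SINE family. The ratio of L1Md_F2 to B4A counts ran from 0.473 through a median of 0.781 to 1.06 in Tesa-inj. In Vehicle-inj it ran from 0.636 through 0.838 to 1.10. On this ratio the groups overlapped and Tesa-inj had the lower median.

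L1Md_A, L1Md_F and L1Md_Gf differed in the other direction from L1Md_F2 and L1Md_F3 on the share of transposable element counts. L1Md_A held 0.0340%, 0.0936% and 0.186% of transposable element counts in Tesa-inj (lowest, median, highest) and 0.0791%, 0.170% and 0.341% in Vehicle-inj, and the groups overlapped. The highest shares of L1Md_A were those of KG8-14 (0.341%), KG8-10 (0.267%) and KG8-07 (0.262%), the Vehicle-inj libraries with the highest sperm marker sums. The mean log2 differences were -1.02 for L1Md_A, -1.13 for L1Md_F and -1.41 for L1Md_Gf (exact permutation p = 0.0268, 0.0303 and 0.0361). Without KG8-12 they were -0.79, -0.92 and -1.05 (exact permutation p = 0.0559, 0.0618 and 0.0734). On the log2 share of all counts these 3 were lower as well (-1.54, -1.64 and -1.93, exact permutation p = 0.0268, 0.0309 and 0.0326), while L1Md_F2 was at 0.07 (exact permutation p = 0.834). Without KG8-12 the 3 were at -1.41, -1.54 and -1.67 on that scale (exact permutation p = 0.0455, 0.0548 and 0.0600). L1Md_T was at -0.40 and -0.91 on the 2 scales, with its sign turned (exact permutation p = 0.597 and 0.372). These p were not adjusted over the 6 families and 3 scales, and shares of 1 total are not independent of each other. In edgeR with TMM over all features, 531 of all 567 elements had a negative log2 fold change. With TMM over the tested elements alone L1Md_A was at 0.30, L1Md_F at 0.18 and L1Md_Gf at -0.07. Lower shares are therefore not read as particular to L1Md_A, L1Md_F and L1Md_Gf.

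The direction of 3 of the 6 families depended on the scaling. With TMM the median log2 fold change of all 567 elements was -0.25. After scaling by library totals it was -1.74, and 540 of the 567 elements were called (95.2%). Under library totals L1Md_A was at -1.54, L1Md_F at -1.78 and L1Md_Gf at -1.87, all 3 called and L1Md_A and L1Md_F with their sign turned, L1Md_T was at -0.09 with its sign turned, and L1Md_F2 and L1Md_F3 were at 0.16 each. With all libraries L1Md_F2 and L1Md_F3 thus kept a positive sign in all scalings, and L1Md_Gf a negative one. Without KG8-12 the mean log2 share of all counts was lower in Tesa-inj for L1Md_F2 (-0.09) and L1Md_F3 (-0.01).

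**Figure D3:**
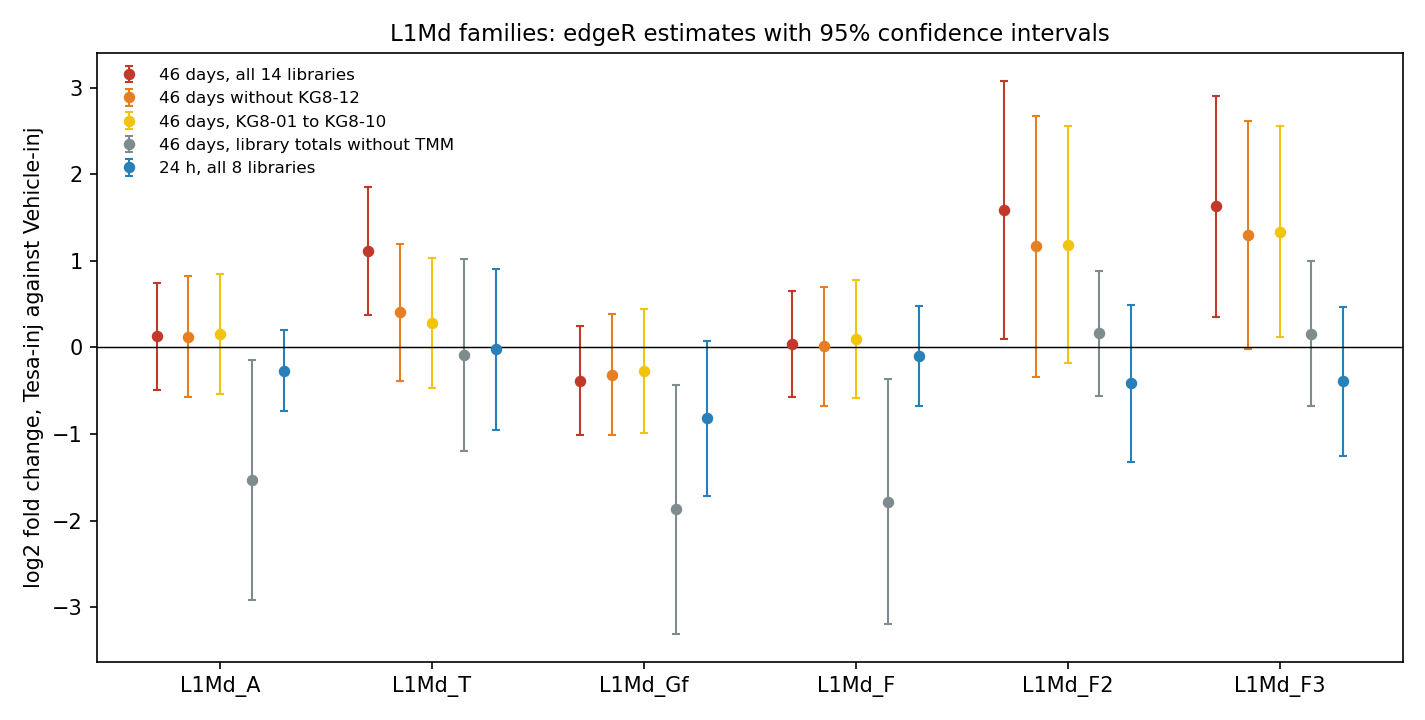
Log2 fold change of each L1Md family in Tesa-inj against Vehicle-inj sperm from edgeR's quasi-likelihood fit, with 95% confidence intervals, at 46 days with all 14 libraries, without KG8-12, with libraries KG8-01 to KG8-10 only, and after scaling by totals, and at 24 h with 8 libraries. The estimate of L1Md_T at 46 days is 1.11 with all libraries, 0.41 without KG8-12 and -0.09 after scaling by totals, where L1Md_A and L1Md_F are also negative.

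Library KG8-12 held further high values. MMVL30-int, the internal part of the VL30 retrotransposon, was the 1 element called at 46 days (log2 fold change 2.08, adjusted p = 7.12e-08). It stood at 654 CPM in KG8-12, at 21.5 to 34.0 in the other 6 Tesa-inj libraries and at 19.8 to 35.2 in Vehicle-inj. Without KG8-12 its log2 fold change was 0.03, and its adjusted p over all alternatives and left-out libraries ran from 1.34e-11 to 0.987. In CPM after TMM KG8-12 was thus the highest library for MMVL30-int, L1Md_T, L1Md_F2 and Ago2, an Argonaute gene described below. In shares of all counts L1Md_T was highest in KG8-11 (0.877%, against 0.139% in KG8-12). KG8-12 also held few counts of sperm markers. Its summed sperm markers were 156 CPM, the lowest of the 14 after those of KG8-02 (63.2 CPM). These 2 libraries were the highest for L1Md_F2 and L1Md_F3 after TMM, but on shares of all counts, the scale of the markers, L1Md_F2 was highest in KG8-12 (5.10%) and lowest in KG8-02 (1.13%). KG8-11, with a high marker sum (4846 CPM), was the lowest library of Tesa-inj for L1Md_F2 after TMM and below only KG8-12 in its share (4.16%). The order of these libraries thus depended on the scale, and the TMM factor was small where the marker sum was low (0.0981 in KG8-02) and large where it was high (4.84 in KG8-11). The part of sperm content in the L1Md values was not tested.

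The 24 h experiment examined sperm collected 24 h after the last injection. In polyadenylated RNA the 6 families held 5.84% ± 1.03 of all counts in Tesa-inj and 5.74% ± 1.31 in Vehicle-inj (SD, n = 4 each). The shares were 5.93%, 7.24%, 5.33% and 4.85% in Tesa-inj and 6.88%, 6.86%, 4.43% and 4.79% in Vehicle-inj. As a share of transposable element counts they were 54.1% ± 5.73 and 52.3% ± 6.12. The groups overlapped in both, and their means differed by less than 1 SD.

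Here L1Md_T and not L1Md_F2 was the most counted family. L1Md_T held 3.80%, 4.68%, 3.34% and 3.37% of all counts in Tesa-inj and 4.22%, 3.76%, 2.60% and 2.79% in Vehicle-inj. L1Md_F2 held 1.77%, 2.15%, 1.65% and 1.23% in Tesa-inj and 2.27%, 2.50%, 1.55% and 1.69% in Vehicle-inj. The groups overlapped in both families. L1Md_A, L1Md_F and L1Md_Gf together held at most 0.198% of the L1Md counts of a library, against at most 5.37% at 46 days. The ratio of L1Md_T to L1Md_A was 483 to 1604, against 2.70 to 29.2 at 46 days.

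Within the L1Md counts at 24 h, L1Md_T was set against L1Md_F2. L1Md_T held 64.1%, 64.6%, 62.6% and 69.4% of L1Md counts in Tesa-inj and 61.3%, 54.8%, 58.8% and 58.2% in Vehicle-inj. The ratio of L1Md_T to L1Md_F2 was 2.02 to 2.73 in Tesa-inj and 1.51 to 1.86 in Vehicle-inj. The groups did not overlap in either quantity. The 2 quantities nearly repeat each other and were picked after the data were seen, and this was 1 of the 15 ratios between 2 families, the other 14 of which overlapped, so nothing is read from it. At 46 days the same ratio ran from 0.00975 to 0.211 in Tesa-inj and from 0.00894 to 0.442 in Vehicle-inj, and the groups overlapped.

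In the quasi-likelihood test at 24 h the median log2 fold change of all 541 elements was -0.32, and it was -0.08 with library totals. L1Md_T was at -0.02 (SE 0.44), L1Md_F2 at -0.41 (SE 0.43) and L1Md_F3 at -0.39 (SE 0.41). L1Md_A was at -0.27 (SE 0.22) and L1Md_F at -0.10 (SE 0.27). L1Md_Gf had the smallest p of the 6, at 7.34, 3.07, 2.71 and 2.52 CPM in the Tesa-inj libraries and 9.02, 3.64, 8.59 and 6.17 CPM in those of Vehicle-inj. Its log2 fold change was -0.82 (SE 0.42, adjusted p = 0.412, range over the alternatives and left-out libraries 0.183 to 1.00). Of its 4 Tesa-inj libraries 3 lay below all Vehicle-inj libraries and ai_1 lay inside their range. The sign turned for L1Md_T and L1Md_F with library totals, and for L1Md_T, L1Md_F and L1Md_A with TMM over the tested elements alone. Single libraries also mattered: without ai_2 L1Md_T was at 0.23, without ai_6 L1Md_F at 0.09, without ai_4 L1Md_F3 at 0.01 and without ai_7 L1Md_F2 at -0.18, while L1Md_Gf was at -1.29 without ai_1. L1Md_A ran from -0.41 without ai_4 to -0.17 without ai_2.

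None of the 6 families was called by the quasi-likelihood test at 24 h, nor any of 541 elements (0%), and none of the 6 had an unadjusted p under 0.05, against 65 of the 541 (12.0%). The exact test, DESeq2 and limma voom called none of the 6 either, and neither did the test without any 1 library.

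The difference between the 2 experiments was tested in 1 model with all 22 libraries. The effect at 46 days minus that at 24 h was 2.03 on the log2 scale for L1Md_F3 (95% confidence interval 0.13 to 3.93), 2.00 for L1Md_F2 (-0.12 to 4.12) and 1.13 for L1Md_T (-0.64 to 2.90). It was 0.43 for L1Md_Gf, 0.39 for L1Md_A and 0.13 for L1Md_F. None of the 6 differences was called by edgeR (adjusted p = 0.994 for each, 0.207 to 1.00 over the alternatives), nor any of 507 elements tested in both (0%). L1Md_F3 was the 1 family with an unadjusted p under 0.05, as were 11 of the 507 elements (2.17%). Without KG8-12 the differences were 1.69, 1.58 and 0.43 for L1Md_F3, L1Md_F2 and L1Md_T. With library totals the sign turned for L1Md_A, L1Md_F, L1Md_Gf and L1Md_T, and with TMM over the tested elements alone for L1Md_F (-0.01). The differences of L1Md_F3 and L1Md_F2 kept their sign with library totals but were only 0.36 (-1.10 to 1.82) and 0.40 (-0.93 to 1.73).

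The other L1 groups put these values in context. At 46 days the median log2 fold change was 0.62 over the 6 L1Md families, of which 5 were positive, -0.02 over 12 L1_Mus, L1_Mur and L1VL families, of which 4 were positive, and -0.24 over 21 Lx families, which were all negative. It was -0.16 over 70 older L1M, L1P and HAL1 families, of which 5 were positive, and -0.25 over all 567 elements, of which 36 were. The 6 L1Md families ran from -0.38 (L1Md_Gf) to 1.63 (L1Md_F3), with L1Md_A at 0.13 and L1Md_F at 0.04, so their median does not describe each of them. The 12 L1_Mus, L1_Mur and L1VL families ran from -0.21 to 0.37. Without KG8-12 the median of the L1Md families was 0.27 and that of all 577 elements -0.34. These medians are with TMM. With library totals, where the median of all elements fell as well, only L1Md_F2 and L1Md_F3 of the 6 L1Md families were positive (0.16 each). With TMM none of the families in the other 3 groups had an unadjusted p under 0.05 in edgeR at 46 days. The smallest p in each belonged to L1VL2 (log2 fold change 0.37), Lx4B (-0.31) and HAL1M8 (-0.62), each with an adjusted p of 0.841 and overlapping groups, and L1VL2 turned negative with library totals (-1.50) and without KG8-02 (-0.03), and Lx4B was at -0.18 without KG8-01. Their adjusted p ran from 0.0286 for Lx4B and HAL1M8 and 0.0385 for L1VL2 to 1.00 over the alternatives and left-out libraries.

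In shares of all counts the L1Md families outweighed each of the other groups in every library but 1, KG8-14 (Vehicle-inj), where the Lx families held 3.35% and the L1Md families 2.73%. At 46 days the L1_Mus, L1_Mur and L1VL families held 0.234% ± 0.216 in Tesa-inj and 0.750% ± 0.571 in Vehicle-inj, the Lx families 0.437% ± 0.421 and 1.48% ± 1.12, and the older families 0.149% ± 0.138 and 0.486% ± 0.367 (SD, n = 7 each). At 24 h these 3 groups held 0.0702%, 0.122% and 0.0709% on average in Tesa-inj and 0.0746%, 0.133% and 0.0795% in Vehicle-inj. The groups of libraries overlapped in each case at 46 days and at 24 h.

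At 24 h all 6 L1Md families, all 12 L1_Mus, L1_Mur and L1VL families and all 21 Lx families had a negative log2 fold change with TMM, as did 56 of 65 older families and 428 of all 541 elements. The medians were -0.33, -0.28, -0.44, -0.43 and -0.32 in that order. At an unadjusted p under 0.05 stood 0 of 6, 2 of 12, 6 of 21 and 12 of 65 families, against 65 of all 541 elements (12.0%). None was called by edgeR. The smallest p belonged to L1_Rod (log2 fold change -0.65), Lx6 (-0.64) and L1M4 (-0.71), each with an adjusted p of 0.336 (0.178 to 1.00 over the alternatives and left-out libraries), and in all 3 the 4 Tesa-inj libraries lay below all Vehicle-inj libraries. So they did in 45 of all 541 elements (8.32%) and in none of the 6 L1Md families, and since these 3 were named for their p, nothing is read from their separation.

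Of the features outside the list, those whose CPM followed the summed CPM of the 6 families most closely at 46 days were B4A, a SINE family (Pearson r = 0.99, n = 14), Kctd6 (0.99), Bptf (0.99), Yam1 (0.97) and Eif4ebp2 (0.97). All of these values share the TMM factor of a library. On shares of all counts, a scale added after the data were seen, the same features had an r of 0.70, 0.77, 0.89, 0.13 and 0.66 with the summed share. At 24 h the closest were Mir6236 (0.97, n = 8), Diaph1 (0.95), Lars2 (0.95), RP23-81C12.3 (0.94) and Med13l (0.94), and 0.85, 0.79, 0.74, 0.71 and 0.66 on shares.

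Single families had other neighbours on shares of all counts at 46 days. The closest feature was L1_Mus3 for L1Md_A (r = 1.00), L1VL4 for L1Md_F (1.00), the long terminal repeat RLTR10B2 for L1Md_Gf (0.99) and Cyp51, a gene of sterol synthesis, for L1Md_T (0.99). For L1Md_F2 it was Bptf (0.89) and for L1Md_F3 B4A (0.84). At 46 days L1Md_A, L1Md_F and L1Md_Gf thus varied most closely with other repeats, and L1Md_T and L1Md_F2 with a gene. At 24 h the closest feature of each family was a gene or transcript: Sub1 for L1Md_A (0.99, n = 8), Anp32b for L1Md_F (0.98), RP23-229N10.2 for L1Md_Gf (0.94), Ttc23 for L1Md_T (0.93), and Lars2 for L1Md_F2 (0.95) and L1Md_F3 (0.92). There L1Md_A had an r of -0.80 with L1Md_F2 and -0.90 with L1Md_F3.

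Genes known to restrain or serve L1 were examined from lists covering the piRNA pathway, DNA methylation, histone methylation and heterochromatin, restriction of L1 RNA and cDNA, and partners of the L1 particle. At 46 days the table held 3 of 20, 0 of 10, 2 of 19, 3 of 18 and 2 of 4 of them, and all 10 were tested. Of these 5 had a positive and 5 a negative log2 fold change, with a median of 0.08 against 0.03 over all 2262 genes. None of the 10 was called by edgeR, nor any of the 2262 mRNAs and lincRNAs (0%), and 1 had an unadjusted p under 0.05, against 130 of all (5.75%). The exact test called none of the 10 either, and 13 of the 2262.

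That gene was Ago2, which encodes the slicing Argonaute of small RNA silencing. Its median was 2.97 CPM and its highest value 20.6 CPM in Tesa-inj, and its lowest, median and highest values were 1.85, 2.41 and 3.48 CPM in Vehicle-inj. KG8-12 (20.6) and KG8-01 (7.02) were far above the rest, from 52 and 63 counts. The lowest Tesa-inj libraries, KG8-02 with 1 count and KG8-03 with 1.59 CPM, lay below all Vehicle-inj libraries, and the groups overlapped. The log2 fold change was 1.11 (SE 0.50, adjusted p = 0.790, 0.504 to 1.00 over the alternatives and left-out libraries), without KG8-12 it was 0.37, and with library totals its sign turned (-0.36). At 24 h Ago2 was at -0.02 (SE 0.33), and 0.27 with library totals and 0.18 without ai_2. Piwil1, Mael, Mov10 and Trim28 were not in the 46 days table.

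At 24 h the table held 14 of 20, 6 of 10, 15 of 19, 17 of 18 and 4 of 4 of the listed genes, of which 49 were tested. Their log2 fold changes were positive for 25 and negative for 24, with a median of 0.01 against -0.01 over all 13033 genes. None of the 49 was called by edgeR, nor any of the 13033 (0%), and 3 had an unadjusted p under 0.05, against 313 of all (2.40%). The exact test called none of the 49 and none of the 13033 either.

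Tet2, which oxidises methylated cytosine, stood at 1.93 to 4.19 CPM in Tesa-inj and 7.26 to 22.7 in Vehicle-inj, with a log2 fold change of -1.97 (SE 0.48). Trex1, a DNA exonuclease that degrades L1 cDNA, stood at 3.76 to 8.72 CPM in Tesa-inj and 0.582 to 3.59 in Vehicle-inj, with 1.30 (SE 0.57). Apobec3, a cytidine deaminase that restricts retroelements, stood at 11.7 to 27.9 CPM in Tesa-inj and 22.5 to 53.5 in Vehicle-inj, with -0.82 (SE 0.33), and -0.52 without ai_4. Each had an adjusted p of 1.00, as in all alternatives to 2 decimals. The groups overlapped for Apobec3 and not for Tet2 and Trex1, as for 3 of the 49 listed genes and 398 of all 13033 (3.05%), and nothing is read from that, since the 3 genes were named for their p.

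The genes named in any case lay nearer to 0 or varied more. Piwil1, a PIWI protein that binds piRNAs late in meiosis, stood at 2.64 to 4.19 CPM in Tesa-inj and 1.78 to 4.60 in Vehicle-inj (log2 fold change 0.22, SE 0.47, 0.07 without ai_4 and 0.54 without ai_2). Mael, a piRNA pathway factor, stood at 2.47 to 6.80 and 4.77 to 10.9 (-0.77, SE 0.43, and -0.51 without ai_8). Mov10, an RNA helicase that inhibits L1 mobility, stood at 0 to 6.66 and 1.75 to 3.22 (0.47, SE 1.11, 0.07 without ai_3 and 0.90 without ai_7). Trim28, the corepressor that brings histone methylation to retroelements, stood at 23.3 to 30.3 and 22.4 to 29.5 (0.06, SE 0.20, and -0.02 without ai_7). The groups overlapped in all 4.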

How the data were processed

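The deposited tables hold estimated counts that the authors made by trimming reads (Trim Galore 1.16) and quantifying them with Salmon 0.11.2 (GRCm38). Counts were rounded. Features were tested where counts exceeded 20 in at least 80% of the smaller group. Counts were scaled by TMM over all features and tested with edgeR 4.0.16 (quasi-likelihood), transposable elements and mRNAs with lincRNAs apart, and p was adjusted (Benjamini-Hochberg) over each class. SE is |log2 fold change| divided by the square root of F. Shares have 95% Wilson intervals. Alternatives were the exact test, DESeq2 1.42.0, limma 3.58.1 voom, other scalings and filters, and fits without each library. The exact permutation test over libraries (CPM and shares), and likeness on shares, were added after seeing the data. Likeness on shares used counts plus 1 for features set against the summed families, and another small offset for single families. Genes were named where an unadjusted p was under 0.05 or the name was listed in the design. Members and lists were chosen with earlier results of these data known. The pipeline was tested on simulated data.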

Additional observations from a re-analysis of the deposited data

Results flagged for a closer look

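Of 84 groups of values examined for a library far from the rest of its group, 11 held one. The rule is set for about 1 in 20 by chance, in independent values. Here the same counts were examined on several scales and the families correlate, so 11 of 84 cannot be set against that rate. KG8-11 (Tesa-inj) was high in its share of all counts for L1Md_A (0.0311%, next 0.0132%), L1Md_T (0.877%, next 0.139%), L1Md_Gf (0.00760%, next 0.00279%) and L1Md_F (0.0205%, next 0.00853%), and for L1Md_T in its share of transposable element counts (5.25%, next 0.994%). KG8-14 (Vehicle-inj) was high for L1Md_T in its share of all counts (0.638%, next 0.242%) and of transposable element counts (3.31%, next 1.48%). KG8-12 (Tesa-inj) was high for L1Md_T in CPM (4392, next 1811). At 24 h ai_7 (Tesa-inj) was low in its share of transposable element counts for L1Md_F2 (11.7%, next 16.7%) and L1Md_F3 (2.32%, next 3.30%), and ai_1 (Tesa-inj) was high for L1Md_Gf in CPM (7.34, next 3.07).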

How the results depend on the processing

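The number of L1Md families called at 46 days was 0 in the quasi-likelihood test (0.176% of 567 elements called). It was 3 in the exact test (L1Md_T, L1Md_F2 and L1Md_F3, all higher; 1.06% of elements), 3 others with library totals (L1Md_A, L1Md_F and L1Md_Gf, all lower; 95.2%) and 2 with limma voom (L1Md_F2 and L1Md_F3, both higher; 0.705%). It was between 0 (without KG8-02, among others) and 1 (L1Md_T, without KG8-01; 1.04%) when a library was left out. At 46 days library totals turned the sign of L1Md_A (-1.54), L1Md_T (-0.0868), L1Md_F (-1.78), L1VL2 (-1.50), MMVL30-int (-0.12) and Ago2 (-0.36). The difference of means used in the permutation test was negative for L1Md_A (-0.0396) and L1Md_F (-0.145), on shares of all counts also for L1Md_A (-1.54), L1Md_T (-0.911) and L1Md_F (-1.64), and on shares of transposable element counts for L1Md_A (-1.02), L1Md_T (-0.396) and L1Md_F (-1.13). MMVL30-int was at -0.00699 in libraries KG8-01 to KG8-10. At 24 h L1Md_A was at 0.0462 with TMM over the tested elements, L1Md_T at 0.33 with it, 0.18 with library totals, 0.0630 with voom and 0.00103 (CPM), 0.199 (share of all counts) and 0.210 (share of transposable element counts) in the permutation test. L1Md_F was at 0.20 and 0.13 with the first 2 of these scalings and at 0.118 and 0.129 on the 2 shares, and Ago2 at 0.27 with library totals. The difference between experiments turned with library totals for L1Md_A (-1.50), L1Md_T (-0.27), L1Md_Gf (-1.15) and L1Md_F (-1.91), and for L1Md_F (-0.00977) with TMM over the tested elements. With 1 library left out, the 46 days values ran from -0.18 to 0.27 for L1Md_A, -0.26 to 0.19 for L1Md_F and -0.0303 to 0.525 for L1VL2, and the 24 h values from -0.19 to 0.23 for L1Md_T, -0.206 to 0.0882 for L1Md_F, -0.588 to 0.00709 for L1Md_F3, -0.25 to 0.18 for Ago2 and -0.0162 to 0.148 for Trim28.

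The estimated counts cannot separate copies, strands or full-length transcripts, and reads shared between families were assigned by the authors' quantification. Time after injection and library type change together. The 46 days libraries differ widely in depth outside ribosomal RNA, so results there depend on the scaling.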
